A study of Mus musculus with 3 samples.

Results

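Y RNA, vault RNA, 7SK RNA, 7SL RNA, the RNase P and RNase MRP RNAs, telomerase RNA and the MALAT1-associated small cytoplasmic RNA (mascRNA) were examined in small RNA libraries of extracellular vesicles (EVs) from postnatal day 7 (PND7) mouse testis. They were taken from Rfam, a database that groups RNAs into families, each with its own sequence and structure model. A family belonged to the set when it was filed under other small non-coding RNA (sncRNA) and its name held the words for these RNAs, without bacterial, archaeal, fungal or plant. By this rule 16 of the 651 families in that class were members, out of 2780 small RNA entries in all. Of the 16, 8 are families with a known mouse gene. The other 8 are families of other organisms, a family taken to have no known mouse gene whose name gives no organism, or names that match in spelling alone.

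The 3 libraries form a single group without a comparison group. Each came from testes of 10 male C57/BL6 mice at PND7. EVs were collected on an affinity column from the supernatant of the Accumax-digested, decapsulated testes and pelleted by ultracentrifugation, so that all cell types of the testis could contribute. Every EV preparation was then digested with proteinase K and RNase A, with PMSF between them, before RNA extraction; the sample titles also carry the word treated without naming a further treatment. Libraries without RNase A and libraries of testis cells were not analysed here, so no enrichment in EVs can be given. Fewer vesicles that carry an RNA and fewer copies in each vesicle cannot be told apart.

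The libraries held between 25716952 and 27939308 clean reads, of which 193204 to 224892 were assigned to other sncRNA. At this depth a limit of 3 counts equals 0.107 to 0.117 CPM, the counts scaled to a total of 1000000 clean reads. The tables hold no read lengths or positions, so whole RNAs and fragments of them could not be separated.

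Most of these RNAs are made by RNA polymerase III and work in ribonucleoprotein particles of the nucleus or cytoplasm. Y RNAs bind the proteins Ro60 and La, 7SL RNA is the scaffold of the signal recognition particle that guides secretory proteins to the endoplasmic reticulum, and 7SK RNA holds the elongation factor P-TEFb inactive. RNase P RNA cuts the leader from precursor tRNAs, and RNase MRP RNA takes part in rRNA processing. mascRNA differs in origin, since it is cut from the 3′ end of the polymerase II transcript MALAT1 and folds like a tRNA. Y RNA and its fragments are often found in EVs.

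The sequences behind the most abundant families are shown to make clear which RNAs the counts can hold. Mouse has a pair of Y RNA genes, Rny1 at chr6:47788069-47788180 on the minus strand and Rny3 at chr6:47781624-47781725 on the plus strand of GRCm38. They are separated by 6343 bases and overlap no other annotated gene. Their sequences follow, 5′ to 3′ as DNA letters from the GENCODE transcripts, with every run of at least 7 bases that occurs in both genes in capitals.
Rny1: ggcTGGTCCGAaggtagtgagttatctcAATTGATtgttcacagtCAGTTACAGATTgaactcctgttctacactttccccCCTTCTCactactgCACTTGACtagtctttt
Rny3: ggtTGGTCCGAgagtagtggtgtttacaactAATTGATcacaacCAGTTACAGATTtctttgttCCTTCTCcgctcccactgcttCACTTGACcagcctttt

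Rny1 has 112 bases and Rny3 has 102, and 71.4% of the columns of their alignment were identical. The longest shared run, CAGTTACAGATT, lies at bases 46 to 57 of Rny1 and 45 to 56 of Rny3. The shared runs TGGTCCGA and CACTTGAC lie near opposite ends of both RNAs. In the minimum free energy fold predicted by RNAfold, 17 base pairs of Rny1 and 21 of Rny3 joined the first 30 bases to the last 30. This end-to-end stem is the part of a Y RNA that Ro60 holds. Both genes carry TTTT, a polymerase III stop signal, in their last 10 bases, whereas 6.14% of all annotated mouse transcripts do. The deposited count is for the Y RNA family, so reads of Rny1 and Rny3 cannot be separated in it. A further 12 annotated genes match at least 80% of Rny1 at 80% identity or more. Whether any of them adds reads to this count was not tested.

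mascRNA is annotated in RefSeq at chr19:5795924-5795981 on the minus strand of GRCm38, within the exon of the long non-coding gene Malat1, where it covers bases 6692 to 6749 of 6983. The sequence was read from the GENCODE Malat1 transcript by these coordinates, and the capitals mark the only match to GTTCNANNC, the B box letters that tRNA genes carry in their T arm. The strand of the RNA alone was searched.
mascRNA: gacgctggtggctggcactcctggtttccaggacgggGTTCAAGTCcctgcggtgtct
The same letters were present in 1.00% of 185107 consecutive 58-base windows of annotated lincRNA transcripts. RNAfold paired 72.4% of the 58 bases. The Rfam family is named for mascRNA together with MEN beta RNA, the corresponding RNA of the neighbouring gene Neat1, so the count of this family need not come from Malat1 alone.

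The member families together had 141603, 110009 and 144055 counts in replicates 1, 2 and 3. Their summed level was 4964 ± 659 CPM (SD, n = 3), and the 8 families without a known mouse gene contributed 42.1 ± 13.4 CPM of it (SD, n = 3). Members held 63.0%, 56.9% and 65.2% of the other sncRNA reads in the same order, with exact binomial (Clopper-Pearson) 95% intervals that reached from 56.7% to 57.2% in replicate 2 and from 65.0% to 65.4% in replicate 3. The intervals cover counting error only, since PCR copies were not told apart, and the libraries differed by more than that. Y RNA and the MALAT1-associated family alone made up 89.1% ± 1.72 (SD, n = 3) of the member reads.

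**Figure D1:**
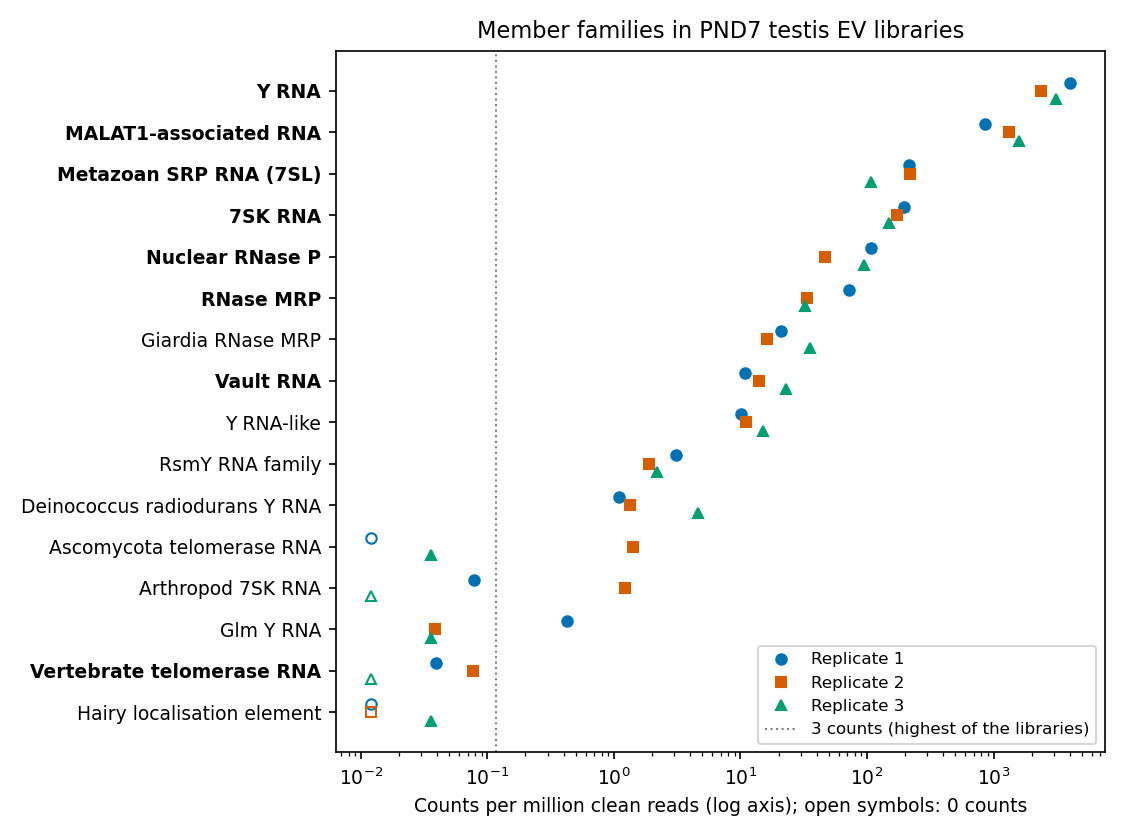
CPM of clean reads (log axis) of each of the 16 member families, with 1 symbol per library and the 8 families that have a mouse gene in bold. Y RNA lies between 2386 and 4009 CPM and telomerase RNA at or below 0.0769 CPM in every library, and open symbols at the left edge stand for 0 counts.

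Y RNA was the most abundant family of the other sncRNA class in every library. It had 4009 CPM in replicate 1, 2386 CPM in replicate 2 and 3098 CPM in replicate 3. Replicate 1 was highest and replicate 2 lowest, with a ratio of 1.68 between them. Of all small RNA entries in the same catalogues, 7 had more counts than Y RNA in replicate 1, and 8 had more in each of the other libraries.

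The MALAT1-associated family, which holds mascRNA, came next in the class by mean CPM, although transfer-messenger RNA had more counts in replicate 1, with 26863 against 22119. It had 860 CPM in replicate 1, 1326 CPM in replicate 2 and 1594 CPM in replicate 3. Here replicate 1 was the lowest, opposite to its place for Y RNA. In replicate 3 only 12 of 2126 entries had more counts than this family, and in replicate 1 this number was 24 of 2109. As a share of the other sncRNA reads, it held 9.84%, 17.8% and 20.2% in replicates 1, 2 and 3.

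Y RNA had 4.66, 1.80 and 1.94 reads for each read of the MALAT1-associated family in replicates 1, 2 and 3. The mean log2 ratio of reads was 1.34 ± 0.76 (SD, n = 3) and above 0 in 3 of 3 libraries. An exact two-sided sign-flip test within libraries gave p = 0.25, the smallest that 3 libraries allow, and an adjusted p of 0.281 over 9 tests. The difference was larger than the SD, but a longer RNA can yield more reads. Per base of the mouse gene, with 112 bases for Rny1 and 58 for mascRNA, Y RNA had 35.8, 21.3 and 27.7 CPM per base and the MALAT1-associated family 14.8, 22.9 and 27.5 CPM per base. On this scale the log2 ratio was 1.27 in replicate 1, -0.10 in replicate 2 and 0.01 in replicate 3. Its mean of 0.39 was smaller than the SD of 0.76 and turned to -0.05 without replicate 1, so that Y RNA stood clearly above the MALAT1-associated family in level per base in replicate 1 alone. The length of Rny1 was used for the whole Y RNA family, although its count can also hold reads of Rny3, which has 102 bases. A shorter length raises the ratio, and the signs of the values -0.10 and -0.05 depend on this choice.

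**Figure D2:**
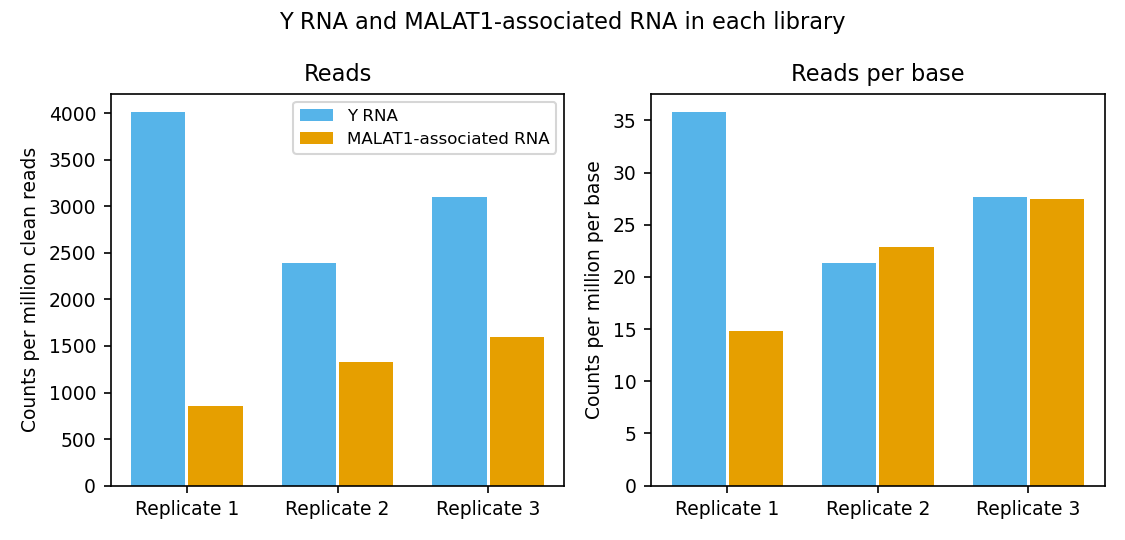
Bars give the value of Y RNA and of the MALAT1-associated family in each library, as CPM of clean reads (left) and divided by the length of the mouse gene (right), which is Rny1 for Y RNA. Y RNA is the higher bar in all 3 libraries on the left, whereas on the right the bars of replicate 3 stand at 27.7 and 27.5 and those of replicate 2 at 21.3 and 22.9.

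The metazoan signal recognition particle family, which holds 7SL RNA, had 214 CPM in replicate 1, 219 CPM in replicate 2 and 108 CPM in replicate 3. Replicate 3 was thus the lowest, and the other libraries lay close together. The annotated 7SL genes Rn7s1 at chr12:69159295-69159594 and Rn7s2 at chr12:69361182-69361481 have the same 300 bases, so their reads cannot be divided between them. Each overlaps a pair of annotated miRNA genes on its own strand, Gm47287 and Gm47295 for Rn7s1 and Gm47299 and Gm47305 for Rn7s2. The authors assigned reads to miRNAs before Rfam families, and the effect on the 7SL count was not tested. By the limits of length and identity used for Rny1, the annotated genes Gm22876 and Gm24105 also match Rn7s1.

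7SK RNA had 197 CPM in replicate 1, 173 CPM in replicate 2 and 148 CPM in replicate 3. With a ratio of 1.33 between the highest and the lowest library, it was the steadiest of the 7 families with a mouse gene and more than 3 counts in every library, for which this ratio reached 2.32. The gene Rn7sk lies at chr9:78175303-78175633 on the minus strand, 3195 bases from the nearest coding gene, Ick. By the limits used for Rny1, the annotated gene Gm23037 also matches Rn7sk. The first 60 bases of Rn7sk form the start of the 5′ hairpin that the P-TEFb inhibitor HEXIM recognizes. They are shown with every GATC in capitals. Later bases of the hairpin are not shown, and whether the marked letters are those that HEXIM binds was not examined.
7SK, first bases: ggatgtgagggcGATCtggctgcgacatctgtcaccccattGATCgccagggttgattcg
GATC occurred 2 times in this stretch, and 1.11% of 141515 annotated transcripts of at least 60 bases held it at least as often in their first 60 bases. GATC reads the same on both strands.

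The signal recognition particle family and 7SK RNA could not be ordered. Their log2 ratio of reads was 0.12, 0.34 and -0.45 in replicates 1, 2 and 3. The mean was 0.00 ± 0.41 (SD, n = 3; exact sign-flip permutation test, p = 1), and it turned to -0.06 without replicate 1 and -0.17 without replicate 2. Per base the levels were 0.601 ± 0.208 CPM for the signal recognition particle family and 0.522 ± 0.0747 CPM for 7SK RNA (SD, n = 3 each), which overlap, and the mean log2 ratio of 0.14 turned to -0.02 without replicate 2. Y RNA exceeded both in reads, by a log2 ratio of 4.17 ± 0.70 to the signal recognition particle family and 4.17 ± 0.34 to 7SK RNA (SD, n = 3 each; exact sign-flip permutation test, p = 0.25 and adjusted p = 0.281 for each). Per base these mean log2 ratios were 5.59 and 5.74. The MALAT1-associated family also stood above the signal recognition particle family in 3 of 3 libraries, by a mean log2 ratio of 5.20 per base.

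Nuclear RNase P RNA had 107 CPM in replicate 1, 46.2 CPM in replicate 2 and 94.8 CPM in replicate 3, so replicate 2 stood below the others. RNase MRP RNA had 71.7 CPM in replicate 1, 33.8 CPM in replicate 2 and 32.4 CPM in replicate 3, so replicate 1 stood above the others. These enzymes share most of their protein subunits, but their RNAs were counted separately and 50.0% of the columns of an alignment of Rpph1 and Rmrp were identical. The identity that unrelated RNAs of such lengths reach was not computed. Nuclear RNase P RNA was higher than RNase MRP RNA in 3 of 3 libraries, with a mean log2 ratio of reads of 0.86 ± 0.60 (SD, n = 3; exact sign-flip permutation test, p = 0.25, adjusted p = 0.281). Per base the log2 ratio was 0.40, 0.27 and 1.37 in replicates 1, 2 and 3, with a mean of 0.68, only a little above the SD of 0.60. Without replicate 3 this mean was 0.33.

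Rpph1, the RNase P RNA gene, lies at chr14:50807449-50807767 on the minus strand and overlaps an exon of Ccnb1ip1 on the same strand. Rmrp lies at chr4:43492783-43493063 on the minus strand and overlaps an exon of Ccdc107 on the opposite strand. The annotation holds 3 further genes close to Rpph1 in sequence, Rprl1, Rprl2 and Rprl3, and none for Rmrp by the same limits of length and identity.

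Vault RNA, the RNA of the large vault particle of the cytoplasm, had 280, 363 and 643 counts in replicates 1, 2 and 3. These counts equal 10.9 CPM, 14.0 CPM and 23.0 CPM, and replicate 3 lay above the others. The exact binomial 95% interval of replicate 3, from 21.3 to 24.9 CPM, did not overlap that of replicate 2, from 12.6 to 15.5 CPM. These intervals, too, cover counting error only, since PCR copies were not told apart. The mouse vault RNA gene Vaultrc5 lies at chr18:36801866-36802008 on the plus strand and overlaps no other annotated gene.
Y RNA had 368, 171 and 135 reads for each vault RNA read in replicates 1, 2 and 3, a mean log2 ratio of 7.67 ± 0.76 (SD, n = 3; exact sign-flip permutation test, p = 0.25, adjusted p = 0.281). Per base the mean log2 ratio of Y RNA to vault RNA was 8.02. RNase MRP RNA had more reads than vault RNA in 3 of 3 libraries, but per base their log2 ratio was 1.75 in replicate 1, 0.30 in replicate 2 and -0.48 in replicate 3, so these neighbours in the order changed places. The mean of 0.52 turned to -0.09 without replicate 1.

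The vertebrate telomerase RNA family, the template RNA of telomerase, had 1, 2 and 0 counts in replicates 1, 2 and 3. All of these are below the limit of 3 counts. The exact binomial 95% upper bound was 0.217 CPM in replicate 1, 0.278 CPM in replicate 2 and 0.132 CPM in replicate 3. Telomerase RNA was thus not detectable above this limit at the depth of these libraries. The gene Terc, at chr3:96414437-96414859, is the longest of the genes compared, with 423 bases.

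Ordered by mean level per base, the families with a mouse gene and more than 3 counts in every library were Y RNA at 28.3 ± 7.27 CPM per base, the MALAT1-associated family at 21.7 ± 6.40, the signal recognition particle family at 0.601 ± 0.208, 7SK RNA at 0.522 ± 0.0747, nuclear RNase P RNA at 0.259 ± 0.101, RNase MRP RNA at 0.164 ± 0.0794 and vault RNA at 0.112 ± 0.0441 (SD, n = 3 each). Among these families the order of mean CPM was the same. Neighbours that changed places between libraries in level per base were Y RNA and the MALAT1-associated family, the signal recognition particle family and 7SK RNA, and RNase MRP RNA and vault RNA. For Y RNA and the MALAT1-associated family this rests on the length of Rny1. The other 3 of the 6 neighbouring pairs kept their order in 3 of 3 libraries, with a mean log2 ratio of reads of 1.14 ± 0.67 (SD, n = 3) for 7SK RNA to nuclear RNase P RNA. The widest step lay between the MALAT1-associated family and the signal recognition particle family.

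**Figure D3:**
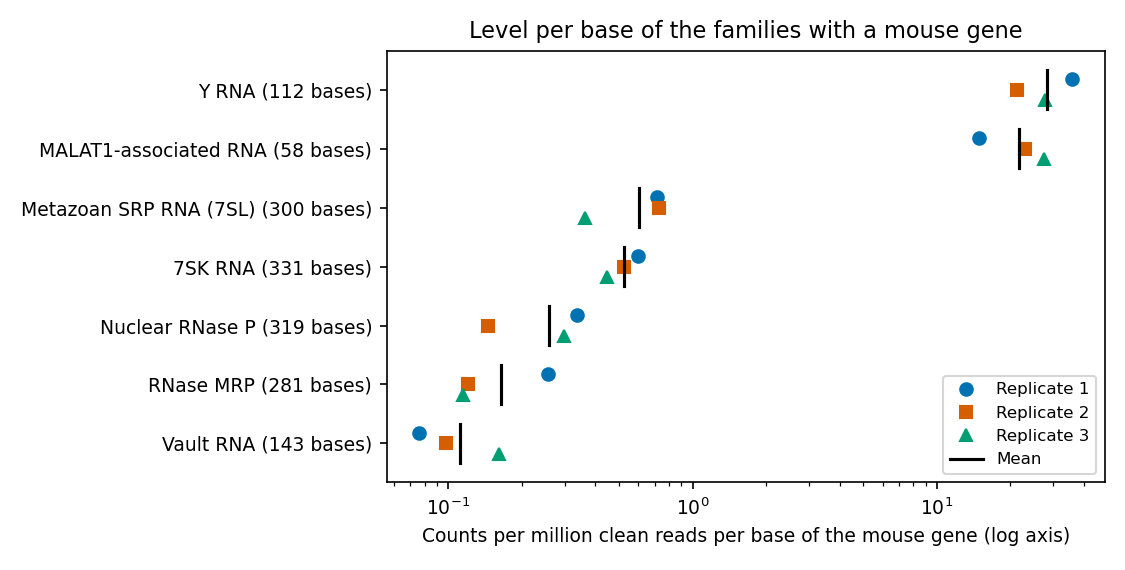
CPM of clean reads divided by the length of the mouse gene (log axis) for the 7 families with a mouse gene and more than 3 counts in every library, with 1 symbol per library and a black line at the mean. Y RNA and the MALAT1-associated family stand between 14.8 and 35.8 CPM per base, and the other families all lie at or below 0.728.

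The families did not share a pattern across the libraries. Y RNA and nuclear RNase P RNA were both highest in replicate 1 and lowest in replicate 2. 7SK RNA and RNase MRP RNA were both highest in replicate 1 and lowest in replicate 3. The MALAT1-associated family and vault RNA were both lowest in replicate 1 and highest in replicate 3, and the signal recognition particle family was highest in replicate 2 and lowest in replicate 3.

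Other transcripts of RNA polymerase III were read in the same libraries. U6 spliceosomal RNA had 1115, 329.7 and 751 CPM in replicates 1, 2 and 3, and was highest in replicate 1 and lowest in replicate 2. 5S rRNA had 20410, 11990 and 10507 CPM and was highest in replicate 1. The tRNA family had 35018, 50579 and 37468 CPM, selenocysteine tRNA 238, 382 and 199 CPM, and U6atac 45.0, 64.0 and 30.9 CPM, and these were all highest in replicate 2. With 3 libraries these shared places are a description, and a common cause was not tested. No entry was found under the names BC1, BC200 or 4.5S, and the single entry found under snaR, the snaR-A family, had 37.6, 59.9 and 14.5 CPM in replicates 1, 2 and 3. No mouse gene was looked up for snaR-A, and whether its reads come from a mouse transcript of this kind was not tested.

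**Figure D4:**
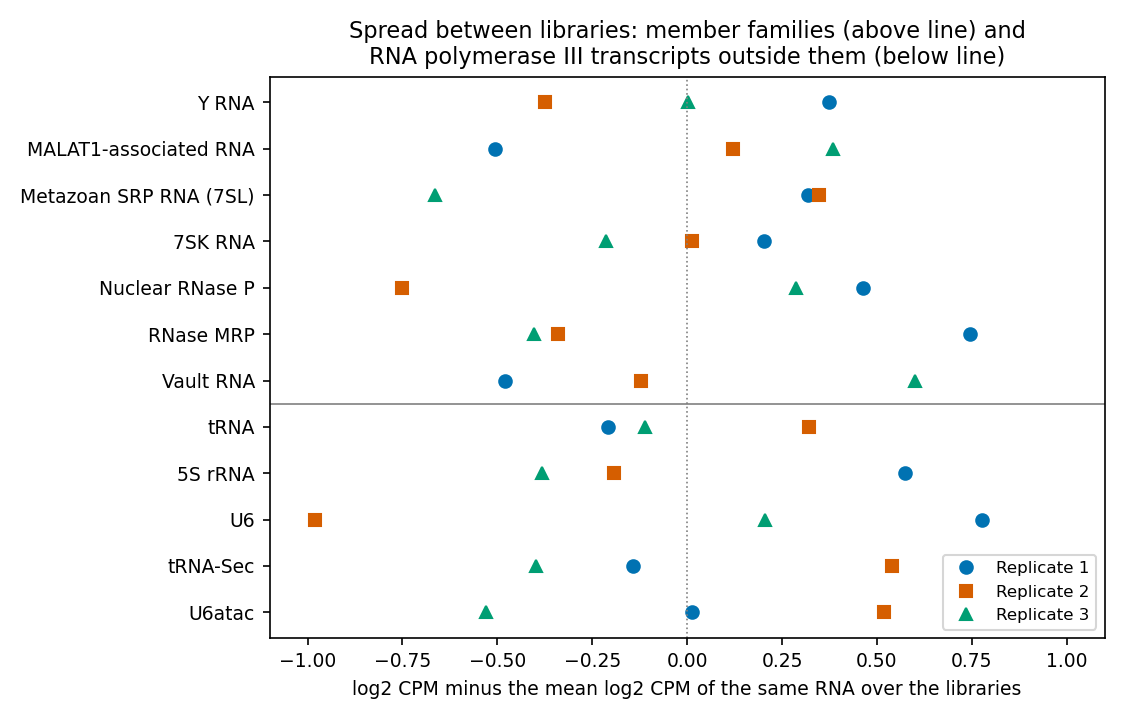
Each symbol is 1 library and gives log2 CPM minus the mean log2 CPM of the same RNA over the libraries, for 7 member families (above the line) and 5 RNA polymerase III transcripts outside them (below the line). Replicate 1 is the highest library for Y RNA (0.37) and the lowest for the MALAT1-associated family (-0.50), and U6 spreads from -0.98 in replicate 2 to 0.78 in replicate 1.

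Among 172 entries outside the set with at least 1000 counts in every library, those that followed Y RNA most closely were U12 spliceosomal RNA, with an SD of the log2 ratio of 0.06 over the 3 libraries, the mature entry of miR-34a-5p, also with 0.06, and the hairpin entry of miR-202-3p with 0.13. U12 had 123, 78.0 and 92.8 CPM in replicates 1, 2 and 3. For the MALAT1-associated family these were the mature entry of miR-3470a (0.06), the hairpin entry of let-7a-5p (0.07) and the mature entry of miR-126a-3p (0.07), and for the signal recognition particle family SNORD24 (0.11), the mature entry of miR-872-5p (0.18) and the hairpin entry of miR-30c-5p (0.22). All points come from the same 3 libraries, so this likeness is a description.

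Of the 8 families without a known mouse gene, Giardia RNase MRP, the RNase MRP RNA of a protist, had the most counts, with 533, 421 and 994 in replicates 1, 2 and 3. At 20.7, 16.2 and 35.6 CPM it exceeded vault RNA in every library, and in replicate 3 it also exceeded RNase MRP RNA. The family named Y RNA-like had 10.2, 11.2 and 15.0 CPM. The RsmY RNA family, a bacterial regulator that matches only in spelling, had 79, 49 and 61 counts, and Deinococcus radiodurans Y RNA had 28, 35 and 130 counts. Ascomycota telomerase RNA had 0, 37 and 1 counts, Arthropod 7SK RNA 2, 32 and 0, the Glm Y RNA activator 11, 1 and 1, and the Hairy localisation element 0, 0 and 1. There was no control library to give the level that such families reach without their RNA.

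The bacterial, archaeal, fungal and plant families of the same RNAs, which the rule leaves out, give a further scale. The 7 such families summed to 20.8, 6.96 and 6.73 CPM in replicates 1, 2 and 3. The highest by mean CPM was the fungal signal recognition particle family, with 193, 61 and 56 counts, against 5512, 5682 and 3028 counts of the metazoan family. It did not lead in every library. In replicate 2 the bacterial small signal recognition particle family had more, with 81 counts, and in replicate 3 archaeal RNase P had more, with 65. The bacterial RNase P class A and class B families had 36, 8 and 1 and 122, 12 and 37 counts, against 2756, 1201 and 2650 for nuclear RNase P. Families named for other RNAs of bacteria reached higher levels, up to 1128 CPM for transfer-messenger RNA in replicate 2. Of the members, Y RNA alone lay above that level in every library. Whether part of the count of any member is misassigned was not tested.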

How the data were processed

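The 3 small RNA libraries of PND7 testis EVs were read on a BGISEQ-500 instrument. After the authors had filtered out reads of low quality, they used Bowtie2 and cmsearch for mapping to the genome and small RNA databases, and ranked the databases so that a read counted once, with miRNAs before Rfam. The submitters' processing notes name mm10, which is GRCm38. Versions, strand handling and allowed mismatches are not given in the sources used here. The authors deposited raw counts of reads per entry and per class, and the percent of clean reads per class. The catalogue counts summed to the class counts. A column headed as molecular identifiers was not used, and 5 rows that name no small RNA stayed out of rankings.

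CPM was the count scaled to 1000000 clean reads, and levels per base were CPM divided by the length of the mouse gene in GENCODE vM21 or, for mascRNA, RefSeq. The Y RNA family was divided by the length of Rny1. With 1 group, differences within libraries were tested with the exact two-sided sign-flip permutation test and the Benjamini-Hochberg adjustment over 9 tests. Of these tests, 6 set a family against the next in the order of mean CPM of the same libraries. The direction of such a ratio largely follows from the ordering. The units of this exact permutation test are the libraries, each from a pool of mice. When a log2 ratio has the same sign in every library, the test gives its smallest possible p-value, whatever the spread between pools. The calculation of likeness was tried on simulated counts, and likeness itself was given no test. Chi-square per degree of freedom over 7 families was at least 401 for every pair of libraries, so none was a repeat deposit.

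The rule for names took all members, 3 similar entries for each of the 3 most abundant, and 5 leading families of the remaining class. Members and lists were chosen with earlier results of these data known. Alternatives changed the denominator, the names, a minimum of 10 counts, pooling, length and libraries. The tools were ViennaRNA 2.7.2, BLAST+ 2.17.0, SciPy 1.17.1, numpy 2.4.6, pandas 2.3.3 and matplotlib 3.10.9 under Python 3.11.15.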

Additional observations from a re-analysis of the deposited data

How the results depend on the processing

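Of 52 alternative values for the levels, shares and ratios, 47 kept their direction or stayed within the spread between libraries, and 3 of 4 alternatives for the order of mean CPM kept all places. Smaller denominators raised the levels by construction. Scaled to annotated small RNA reads, the summed level of the members was 13971 CPM and that of Y RNA 8869 CPM, and scaled to all reads but the unmapped ones the summed level was 5842 CPM. The log2 ratio of the signal recognition particle family to 7SK RNA, 0.00 over all libraries, turned to -0.06 without replicate 1 and to -0.17 without replicate 2, and leaving out each replicate in turn gave values from -0.17 to 0.23. Without replicate 2 the order of mean CPM kept 6 of 8 places, because the signal recognition particle family and 7SK RNA changed places. The log2 ratio of Y RNA to the MALAT1-associated family was 0.90 without replicate 1, 1.59 without replicate 2 and 1.53 without replicate 3. The alternatives with only the 8 families that have a mouse gene, those for this last ratio and the leave-one-out orders were chosen after seeing the data. Ratios were formed within libraries, and a pairing between groups does not arise, since all libraries belong to 1 group.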

Other observations

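The 5 families that led the rest of the other sncRNA class carry names of RNAs outside the mouse. Transfer-messenger RNA had 1045, 1128 and 708 CPM in replicates 1, 2 and 3, psbNH RNA 338, 349 and 299 CPM, and the betaproteobacterial transfer-messenger RNA 171, 163 and 181 CPM. The rydB RNA family had 87.1, 67.9 and 81.2 CPM, and the family of the HIV primer binding site 34.3, 93.7 and 71.9 CPM. Of the members, Y RNA and the MALAT1-associated family exceeded psbNH RNA in reads in every library, and the MALAT1-associated family had fewer reads than transfer-messenger RNA in replicate 1 and more in replicates 2 and 3.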
